A study of Mus musculus with 6 samples.

Results

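The genes followed here direct early blood cells towards the lymphoid lineages: Satb1, Mef2c, Ikzf1, Ikzf2, Notch1, Tcf3, Ebf1, Bcl11a, Runx2 and Tcf7. Members were the rows of the deposited table whose symbol exactly equalled one of these names, which found 10 of 10 among 38926 rows. RNA was sequenced from 3 libraries labelled Drd2 Drd3 double knockout (KO), the genes of the dopamine receptors D2 and D3, and from 3 labelled wild type (WT). The donors were untreated C57BL/6 mice of 8 to 12 weeks, and the bones were femur and tibia. The cells were gated as Lin- Sca1+ cKit+ (LSK), which takes in stem cells and multipotent progenitors of the marrow. How the KO alleles were made, and whether animals were pooled, the sources used here do not say. Levels are in FPKM, the authors' read numbers divided by gene length and depth.

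As background, lymphoid fate is prepared before any lymphocyte exists. Multipotent progenitors begin to transcribe lymphoid genes at a low level, with Ikaros, the E proteins and MEF2C among the factors involved, and SATB1 organises chromatin as they do so. NOTCH1 then directs cells to the T lineage and EBF1 to the B lineage.

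Of the members, 3 were called lower, and no difference between members was tested. Satb1, Ikzf1 and Mef2c fell in the KO libraries, none of the 10 was called higher, and Tcf3, the most abundant member, overlapped between groups. Satb1 averaged 6.38 ± 1.49 FPKM in KO and 18.9 ± 2.07 FPKM in WT (SD, n = 3 per group here and below). Ikzf1 averaged 11.5 ± 0.863 FPKM in KO and 19.4 ± 1.44 FPKM in WT, and Mef2c 24.1 ± 2.32 FPKM in KO and 39.0 ± 2.34 FPKM in WT. Notch1 was lower in each KO library than in any WT library but missed the threshold.

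With a mean of at least 1 FPKM, 9 of the 10 were tested, with limma on log2(FPKM + 1) and Benjamini-Hochberg adjustment over 11371 genes. Of these 9, 3 were called lower at an adjusted p under 0.05, where 10.9% of all tested genes were called in either direction and 5.43% lower. By the same test 0 were called higher (5.48% of all tested genes), 0 were higher at an unadjusted p under 0.05, and voom on recovered reads also called 0 higher. The groups did not overlap in 4 of the 9, each with KO below WT, against 32.8% of all tested genes, or 16.6% with KO below WT. The log2 fold change was negative in 8 of the 9 and positive in 1. Its median was -0.38 over the 9 and -0.0021 over all tested genes. Notch1 passed the filter through its WT level alone, so these figures describe the members and support nothing further. The number of genes called in the whole table depended on single libraries: it was 1240 with all 6, 824 without KO replicate 1, and 531, 370 and 509 without WT replicates 1, 2 and 3. Satb1, Mef2c and Ikzf1 were called in each of these 4 fits.

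**Figure D1:**
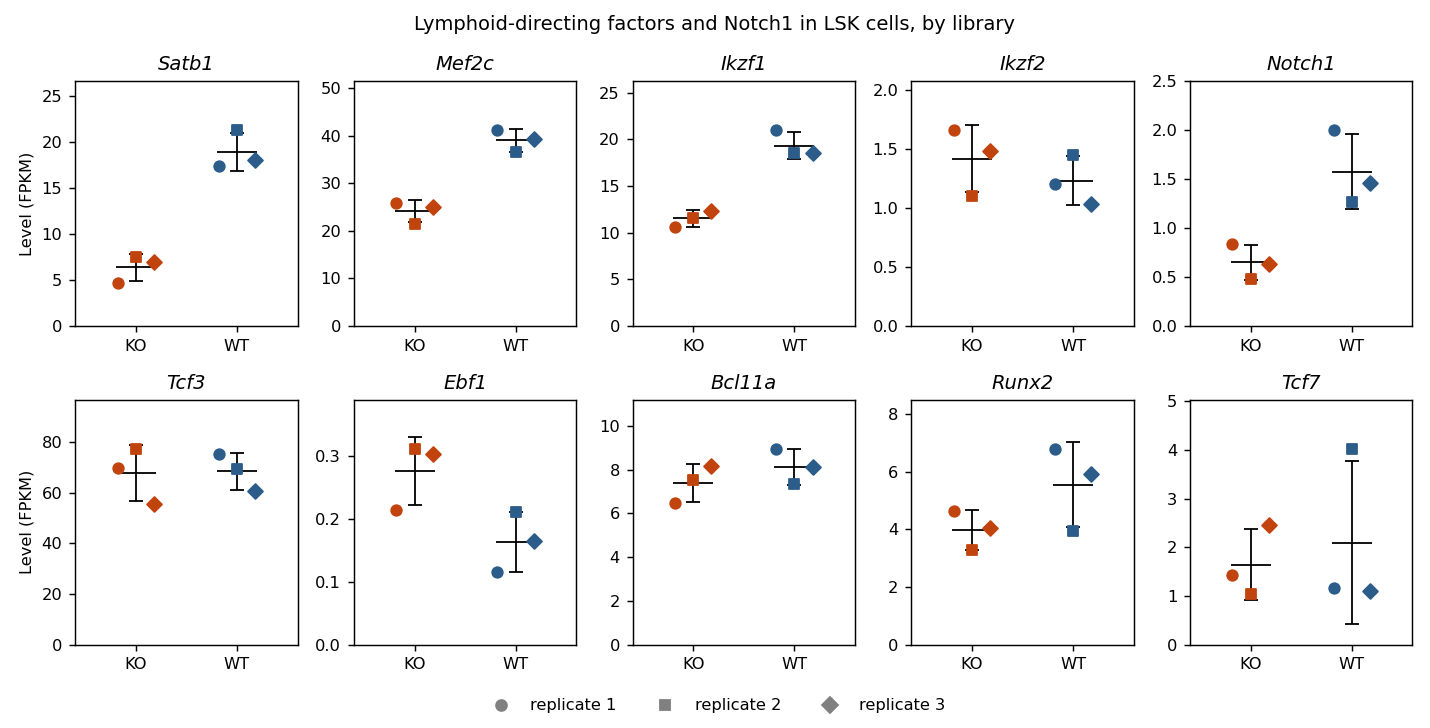
Level of each member in FPKM (vertical axes start at 0 and differ in scale), KO libraries left and WT libraries right. Symbols are replicates, the long line is the mean and the whiskers are 1 SD (n = 3). KO and WT points are apart in Satb1, Mef2c, Ikzf1, Notch1 and Ebf1, with KO above WT in Ebf1 alone of these, and they overlap in the other 5.

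Some facts of the whole series bear on these values. Of the targeted genes, Drd2 was listed at 0 in all 6 libraries and so checks nothing, while Drd3 went against the labels. It stood at 1.62, 3.08 and 3.04 FPKM in those labelled KO and at 0 in those labelled WT. Every direction here is therefore between libraries as labelled. No member lies on chromosome 9 or 16, which carry Drd2 and Drd3. KO replicates 1 and 3 had no reads of the Y-linked Ddx3y and had 3182 and 1173 FPKM of the antibody light chain Igkc, against 4.93 FPKM in KO replicate 2 and at most 2.48 FPKM in WT. The X-linked RNA Xist had 1.96 and 2.01 FPKM in KO replicates 1 and 3 and was at 0 in the other 4 libraries, so the libraries labelled KO differ among themselves in these sex-linked transcripts and those labelled WT do not. The value of each tested member with KO replicate 2 as the single KO library is given beside its result. Reads per library, recovered from the steps between FPKM values as lower bounds, were 5181701 to 7055689 in KO and 5840189 to 6134559 in WT. The gate's defining genes were present: Ly6a (Sca1) averaged 133 ± 25.0 FPKM in KO and 122 ± 10.2 FPKM in WT, and Kit 101 ± 25.2 FPKM in KO and 121 ± 25.1 FPKM in WT.

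To show where the 3 genes that fell and Notch1 start, these are the 250 bases before the most upstream RefSeq start of each (GRCm38.p6, 5′ to 3′ on the gene's strand). By the gene positions given below, Ikzf1 and Notch1 begin further upstream, so their windows lie inside the gene. Capitals mark E-boxes (CANNTG, the element that E proteins bind).
Satb1, chr17:51833291-51833540, minus strand: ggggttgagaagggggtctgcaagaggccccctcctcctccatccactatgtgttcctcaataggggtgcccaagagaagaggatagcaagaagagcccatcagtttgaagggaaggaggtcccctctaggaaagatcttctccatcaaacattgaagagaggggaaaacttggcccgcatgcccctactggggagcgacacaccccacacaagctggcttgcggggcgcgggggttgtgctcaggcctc
Mef2c, chr13:83503784-83504033, plus strand: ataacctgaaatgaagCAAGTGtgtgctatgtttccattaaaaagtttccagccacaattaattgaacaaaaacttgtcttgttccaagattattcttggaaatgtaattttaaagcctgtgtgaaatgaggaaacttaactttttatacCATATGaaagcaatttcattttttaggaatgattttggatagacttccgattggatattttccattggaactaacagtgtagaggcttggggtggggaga
Ikzf1, chr11:11685675-11685924, plus strand: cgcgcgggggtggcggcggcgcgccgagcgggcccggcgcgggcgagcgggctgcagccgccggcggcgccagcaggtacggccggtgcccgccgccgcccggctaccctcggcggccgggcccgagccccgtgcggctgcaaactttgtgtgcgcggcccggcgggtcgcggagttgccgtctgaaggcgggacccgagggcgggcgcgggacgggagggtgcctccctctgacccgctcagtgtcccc
Notch1, chr2:26503823-26504072, minus strand: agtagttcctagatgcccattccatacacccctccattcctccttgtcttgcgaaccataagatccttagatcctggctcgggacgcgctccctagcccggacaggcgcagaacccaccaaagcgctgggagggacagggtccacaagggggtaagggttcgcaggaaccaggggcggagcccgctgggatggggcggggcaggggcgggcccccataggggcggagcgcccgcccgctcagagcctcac

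These stretches differ in composition. That of Ikzf1 is 82.0% G and C with 44 CG pairs, that of Notch1 66.0% with 16 and that of Satb1 58.0% with 5, while that of Mef2c is 33.6% with 1, against medians of 52.4% and 6 over 32851 such windows. Mef2c holds E-boxes that begin 234 and 100 bases before the start, and the other 3 hold none, where 66.2% of all windows hold at least 1. On either strand none of the 4 holds TGGGAA, a core shared by Ikaros proteins and the Notch partner RBPJ (21.6% of all windows), TGTGGT, the RUNX core (14%), or CTTTGA, a TCF and LEF core (13.8%). A MEF2 element (CTA and TAG, 4 bases apart; 3.2%) and an EBF element (TCCC and GGGA, 2 bases apart; 0.779%) were also not found. The RefSeq table held a window for 9 of the 10 members, Ikzf2 being the other. Among the remaining 5, Bcl11a holds TGGGAA, Ebf1 and Runx2 hold TGTGGT, Runx2 holds CTTTGA, and Tcf3, Bcl11a, Runx2 and Tcf7 hold an E-box, which in Runx2 overlaps TGTGGT. By gene position, the windows of Bcl11a and Ebf1 also lie inside the gene, and those of Runx2 and Tcf3 lie partly inside. A match describes letters and is not a bound site.

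Satb1 encodes a protein that folds chromatin into loops and is needed for normal T cell development in mice. It was at 4.68, 7.46 and 6.99 FPKM in KO replicates 1 to 3, against 17.4, 21.3 and 18.1 FPKM in WT replicates 1 to 3. The groups were far apart, with the KO libraries at 24.8, 39.4 and 36.9% of the WT mean. The log2 fold change was -1.45 ± 0.17 SE (95% confidence interval -1.84 to -1.06, limma adjusted p = 0.00175), and the KO mean was 2.97-fold lower. With KO replicate 2 as the single KO library it was -1.23, and the gene was called under each of the 15 alternatives (adjusted p 8.22e-05 to 0.0260). The gene (chromosome 17, 51736187 to 51833290, minus strand, GRCm38) rested on at least 1554 KO and 4365 WT reads. In a bulk sample, fewer cells of a type and less RNA per cell cannot be told apart.

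Mef2c, a MADS-box factor that favours lymphoid over myeloid output of multipotent progenitors, was at 25.9, 21.5 and 24.9 FPKM in KO replicates 1 to 3, against 41.2, 36.6 and 39.4 FPKM in WT replicates 1 to 3. Each KO library stood below each WT library. The log2 fold change was -0.67 ± 0.11 SE (95% confidence interval -0.92 to -0.43, limma adjusted p = 0.00696). With KO replicate 2 as the single KO library it was -0.83 (adjusted p = 0.0284). KO replicate 2 was the lowest, at 55.1% of the WT mean, against 66.4 and 63.9% in KO replicates 1 and 3. It was called under all 15 alternatives (adjusted p 0.00149 to 0.0366). The gene lies on chromosome 13, 83504034 to 83667080, plus strand.

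The Ikaros family has a pair of members. Ikzf1 encodes Ikaros, a zinc finger factor that mice need to form lymphocytes, and Ikzf2 encodes its relative Helios, known from regulatory T cells. Ikzf1 was at 10.6, 11.6 and 12.3 FPKM in KO, against 21.0, 18.5 and 18.5 FPKM in WT. The 3 KO values lay close together and under the lowest WT value. The log2 fold change was -0.70 ± 0.12 SE (95% confidence interval -0.97 to -0.43, limma adjusted p = 0.00812). With KO replicate 2 as the single KO library the size was close (-0.69) but the call was lost (adjusted p = 0.0603, the highest of 0.00224 to 0.0603 over the 15 alternatives). The gene lies on chromosome 11, 11685003 to 11772926, plus strand.

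Ikzf2 stood far below Ikzf1 in level per length. The gene (chromosome 1, 69531214 to 69687245, minus strand) was at 1.66, 1.11 and 1.49 FPKM in KO, against 1.21, 1.45 and 1.04 FPKM in WT. The groups overlapped (0.11 ± 0.21 SE, 95% confidence interval -0.36 to 0.59, limma adjusted p = 0.767). With KO replicate 2 as the single KO library the log2 fold change was -0.079 (adjusted p = 0.844). Ikzf5, another relative, also overlapped, at 3.87 ± 1.20 FPKM in KO and 4.53 ± 0.707 FPKM in WT. Ikzf3 (Aiolos), which acts later in B cells, was listed at 0 in all 3 KO libraries and at most 0.0585 FPKM in WT. Ikzf3 and Ikzf5 were chosen after their values were seen, and the difference between the responses of Ikzf1 and Ikzf2 was not tested.

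Notch1 encodes the receptor that directs progenitors to the T lineage when they meet its ligands in the thymus. It was at 0.837, 0.478 and 0.635 FPKM in KO, against 2.003, 1.27 and 1.46 FPKM in WT. All KO values were below all WT values, and the KO mean was 2.43-fold lower. On the log2(FPKM + 1) scale, which understates changes of low genes, the difference was -0.64 ± 0.22 SE (95% confidence interval -1.15 to -0.13) and missed the threshold (limma adjusted p = 0.101, unadjusted p = 0.0185). As the single KO library, KO replicate 2 gave -0.79 (adjusted p = 0.126). The reads behind it were 86, 47 and 49 in KO, against 178, 106 and 130 in WT. With 0.1 in place of 1 added to FPKM, the difference was -1.17 ± 0.44 SE and again missed the threshold (limma adjusted p = 0.125). A fit of recovered reads with voom, chosen after the data were seen, gave -1.28 ± 0.28 SE and called Notch1 (adjusted p = 0.00921), where it called 13.9% of all genes, 7.88% lower. Adjusted p ran from 0.00921 to 0.280 over the 14 alternatives that tested Notch1, and voom was the only one to call it. Of its 14232 exon bases on chromosome 2 (26457903 to 26516663, minus strand), 1068 are shared with 0610009E02Rik on the other strand. The kit does not mark strand, so reads there cannot be assigned to either gene.

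**Figure D2:**
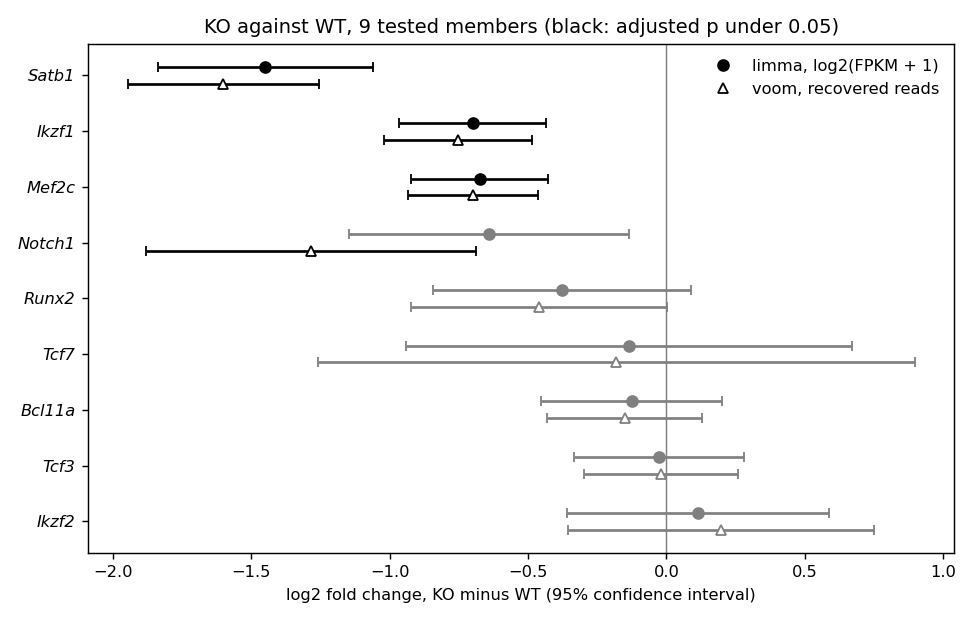
log2 fold changes, KO minus WT, of the 9 tested members, with bars for the 95% confidence interval. Circles are limma on log2(FPKM + 1) and triangles voom on recovered reads, black where the adjusted p was under 0.05: Satb1, Ikzf1 and Mef2c are black by both fits, Notch1 by voom alone (-1.28, against -0.64 by limma).

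Tcf3 encodes the E proteins E12 and E47, which open the B cell programme, and was the highest member in both groups. The gene (chromosome 10, 80409514 to 80433647, minus strand) was at 70.0, 77.5 and 55.7 FPKM in KO, against 75.4, 69.4 and 60.8 FPKM in WT. The groups overlapped, with 5422 KO and 5080 WT reads behind them (-0.025 ± 0.14 SE, 95% confidence interval -0.33 to 0.28, limma adjusted p = 0.926). The sign of this small difference changed under 4 of 15 alternatives, among them KO replicate 2 as the single KO library (0.18, adjusted p = 0.450).

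Ebf1, the factor that commits progenitors to the B lineage, was nearly silent and fell below the filter. The gene (chromosome 11, 44617317 to 45008091, plus strand) was at 0.213, 0.311 and 0.302 FPKM in KO, against 0.115, 0.210 and 0.164 FPKM in WT, which is 15, 21 and 16 reads in KO against 7, 12 and 10 reads in WT. Each KO value was above each WT value by few reads. With no filter on low values the log2 fold change was 0.13 ± 0.081 SE (limma adjusted p = 0.447). The 18 B and plasma cell markers summed to 3627, 166 and 1560 FPKM in KO replicates 1 to 3 and to 349.8 to 372 FPKM in WT, and none was at 0 throughout. Of 9 tested, 1 was called, higher (5.48% of all tested genes). It was Iglc2, which passed the filter through its KO level alone. The sum was mostly Igkc in KO replicates 1 and 3 and mostly the immunoglobulin gene Ighm in KO replicate 2 and in WT. The part of B lineage cells in the values of Ebf1 was not tested. Pax5, which EBF1 activates and which was chosen after its values were seen, was at most 0.187 FPKM in any library.

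Bcl11a, a zinc finger factor needed for lymphoid progenitors and known for silencing fetal globin genes, was at 6.48, 7.52 and 8.17 FPKM in KO, against 8.97, 7.33 and 8.13 FPKM in WT. The groups overlapped (-0.13 ± 0.15 SE, 95% confidence interval -0.45 to 0.20, limma adjusted p = 0.625), and KO replicate 2 as the single KO library gave -0.10 (adjusted p = 0.762). The gene lies on chromosome 11, 24078056 to 24174123, plus strand. Its relative Bcl11b, which fixes T cell identity and was chosen after its values were seen, was at most 0.222 FPKM in KO and 0.273 FPKM in WT.

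Runx2, best known from bone and also expressed in plasmacytoid dendritic cells, was at 4.66, 3.27 and 4.05 FPKM in KO, against 6.81, 3.94 and 5.92 FPKM in WT. WT replicate 2 lay inside the KO range, and the difference did not pass (-0.38 ± 0.21 SE, 95% confidence interval -0.84 to 0.090, limma adjusted p = 0.276). It was -0.59 with KO replicate 2 as the single KO library (adjusted p = 0.277). The gene lies on chromosome 17, 44495987 to 44814797, minus strand, and 519 of its 8837 exon bases are shared with Runx2os1 on the other strand. The 10 osteoblast and stromal markers summed to 15.8 to 19.8 FPKM in KO and 29.5 to 40.3 FPKM in WT. Of 5 tested, 2 were called lower (5.43% of all tested genes). Those called were Pdgfrb (log2 fold change -1.17, limma adjusted p = 0.0126) and Cxcl12 (-0.86, adjusted p = 0.0494). The osteoblast genes Sp7 and Bglap were at most 0.190 and 0.259 FPKM in any library. Ibsp, another osteoblast gene, was present in both groups and overlapped (4.28 ± 1.55 FPKM in KO and 6.53 ± 2.56 FPKM in WT). Col1a1 was at most 0.465 FPKM in KO and was highest in WT replicate 3. The 8 plasmacytoid dendritic cell markers summed to 98.9 to 129 FPKM in KO and 134 to 141 FPKM in WT. Most of it was Bst2, which overlapped (103 ± 15.1 FPKM in KO and 104 ± 0.602 FPKM in WT). Of 4 tested, 2 were called lower, against 5.43% of all tested genes. Cox6a2, called lower, averaged 4.06 ± 2.30 FPKM in KO and 19.6 ± 6.29 FPKM in WT (limma adjusted p = 0.00993). Ly6d averaged 6.95 ± 2.33 FPKM in KO and 11.9 ± 2.34 FPKM in WT. It was below WT in each KO library but was not called (limma adjusted p = 0.0835). Ccr9, among those called, passed the filter through its WT level alone, so the count is a description. Klk1 and Cd209d were at 0 throughout and Siglech at most 0.218 FPKM. The part of these cell types in the values of Runx2, Mef2c and Bcl11a was not tested.

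Tcf7, which encodes the T lineage factor TCF1 that acts downstream of Notch, was the least even member. The gene (chromosome 11, 52252371 to 52283014, minus strand) was at 1.43, 1.05 and 2.46 FPKM in KO, against 1.16, 4.03 and 1.10 FPKM in WT. WT replicate 2 stood alone with 62 reads, against 19 and 18 in the other WT libraries, and the groups overlapped (-0.14 ± 0.36 SE, 95% confidence interval -0.94 to 0.67, limma adjusted p = 0.843). Without WT replicate 2 the difference was 0.28 (adjusted p = 0.629), and with KO replicate 2 as the single KO library it was -0.47 (adjusted p = 0.617), the ends of its range over the 14 alternatives. The 14 T and NK cell markers summed to 195 to 304 FPKM in KO and 358 to 421 FPKM in WT, nearly all of it Nkg7. Of 6 tested, 1 was called higher and 1 lower, against 5.48% higher and 5.43% lower of all tested genes. The 1 called lower was Nkg7 itself, at 240 ± 51.9 FPKM in KO and 390 ± 34.1 FPKM in WT (limma adjusted p = 0.0193). Klrb1c, which was called higher, passed the filter through its KO level alone. Cd3e was highest in WT replicate 2 (0.238 FPKM), while Trac was lowest there (0.413 FPKM) and highest in KO replicate 1 (4.70 FPKM). Trbc1 was highest in KO replicate 2 (2.83 FPKM). These genes were picked with their values in view. Cd3g and Ncr1 were at 0 throughout. The part of T cells in the values of Tcf7 was not tested.

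**Figure D3:**
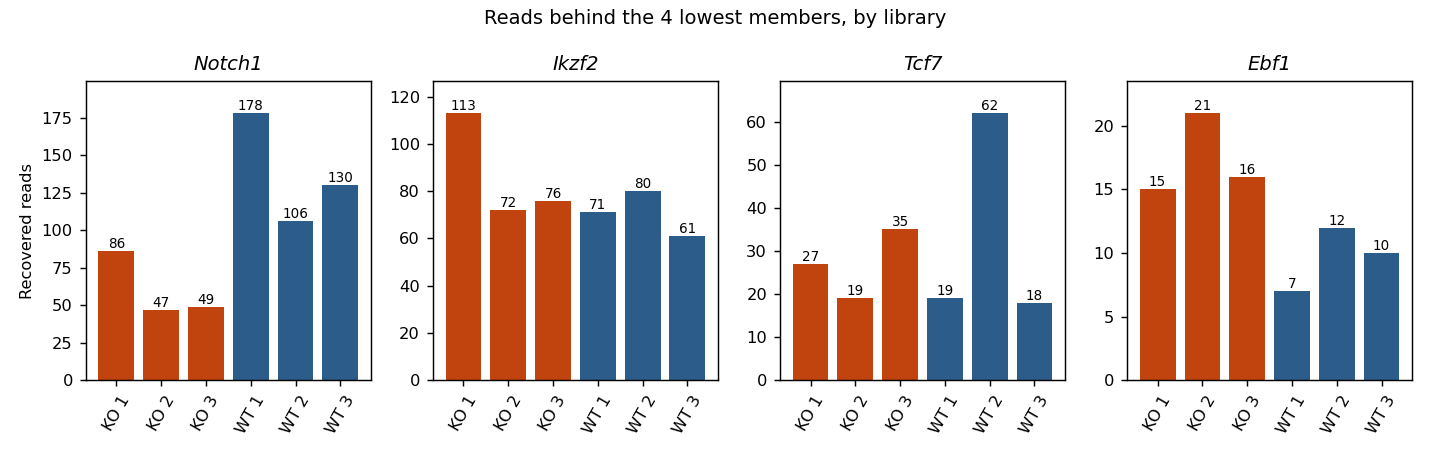
Recovered reads per library for the 4 members of lowest level, KO libraries left of WT libraries (bars start at 0). Notch1 has 47 to 86 reads in KO and 106 to 178 in WT, Ebf1 rests on 52 reads in all of KO and 29 in all of WT, and 1 WT library holds 62 reads of Tcf7. Reads of Ikzf2 are lower bounds.

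Ranked by mean level per length in KO libraries, the members ran Tcf3, Mef2c, Ikzf1, Bcl11a, Satb1, Runx2, Tcf7, Ikzf2, Notch1 and Ebf1, from 67.7 to 0.276 FPKM. In WT libraries they ran Tcf3, Mef2c, Ikzf1, Satb1, Bcl11a, Runx2, Tcf7, Notch1, Ikzf2 and Ebf1, from 68.6 to 0.163 FPKM. Neighbours whose ranges overlapped were Bcl11a with Satb1 and Tcf7 with Ikzf2 in KO, and Ikzf1 with Satb1, Runx2 with Tcf7, Tcf7 with Notch1 and Notch1 with Ikzf2 in WT. Satb1 thus stood at the level of Bcl11a in KO and at that of Ikzf1 in WT.

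The partners of Notch1 showed no common direction. NOTCH1 is modified by Fringe glycosyltransferases and cut by ADAM proteases and gamma-secretase, and its free tail joins RBPJ and Mastermind proteins to switch on Hes, Hey and Nrarp genes. Of 33 tested genes of the pathway, 2 were called higher and 2 lower (6.06% each, against 5.48 and 5.43% of all tested genes), with a median log2 fold change of -0.072. Nrarp, a target gene that feeds back on the NOTCH complex, rose to 120.5, 113 and 114 FPKM in KO, against 65.1, 68.1 and 55.1 FPKM in WT (0.88 ± 0.10 SE, limma adjusted p = 0.00167). The groups were far apart, and it was called under all 15 alternatives.

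No other tested target gene passed, and those named here were picked with their values in view. Hes1 averaged 159 ± 43.8 FPKM in KO and 102 ± 16.7 FPKM in WT (limma adjusted p = 0.0662), and Hey1 16.5 ± 4.15 FPKM in KO and 10.9 ± 1.49 FPKM in WT (adjusted p = 0.0834). Both were above WT in each KO library, while Hes5 overlapped (2.0996 ± 1.71 FPKM in KO and 0.6002 ± 0.0222 FPKM in WT). In the libraries labelled KO, Notch1 was thus below WT in level where Nrarp, Hes1 and Hey1 were above it.

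Among the other called genes of the pathway, the coactivator Maml3 averaged 1.57 ± 0.0354 FPKM in KO and 3.27 ± 0.561 FPKM in WT (limma adjusted p = 0.0389), and the Deltex gene Dtx4 0.877 ± 0.269 FPKM in KO and 2.32 ± 0.480 FPKM in WT (adjusted p = 0.0420). Dtx4 passed the filter through its WT level alone. The gamma-secretase gene Psen2 averaged 13.4 ± 1.14 FPKM in KO and 8.69 ± 1.04 FPKM in WT (adjusted p = 0.0295). These 3 calls did not hold in most fits without 1 library. Maml3 lost its call without any 1 of the 6 libraries (adjusted p 0.0502 to 0.151), Psen2 without any 1 but KO replicate 1 (0.0532 to 0.107), and Dtx4 without any 1 but KO replicate 3 (0.0942 to 0.159). Over these 6 fits the pathway had 1 to 4 genes called higher and 0 to 1 lower. The ligand gene Dll4 and the glycosyltransferase gene Lfng, both picked with their values in view, stood apart between groups but were not called: Dll4 averaged 2.002 ± 0.794 FPKM in KO and 0.807 ± 0.0298 FPKM in WT, and Lfng 8.82 ± 1.35 FPKM in KO and 12.8 ± 2.62 FPKM in WT. The receptor Notch2 and the nuclear partner Rbpj, picked in the same way, overlapped.

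Id proteins bind E proteins such as those of Tcf3 and keep them off DNA. Id1 rose to 58.7, 67.5 and 83.4 FPKM in KO, against 37.8, 35.3 and 30.6 FPKM in WT (0.98 ± 0.14 SE, limma adjusted p = 0.00400). The groups were far apart, and it was called under all 15 alternatives. Id3 averaged 52.1 ± 9.11 FPKM in KO and 31.7 ± 7.27 FPKM in WT (adjusted p = 0.0315), and its call was lost without KO replicate 1 or 2 or WT replicate 1 or 3 (adjusted p 0.0529 to 0.108). The E protein genes Tcf4 and Tcf12, chosen after their values were seen, overlapped between groups as Tcf3 did.

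Of 13 tested relatives and partners of the members, 2 rose, Id1 and Id3, and 2 fell (15.4% each, against 5.48% higher and 5.43% lower of all tested genes), with a median log2 fold change of -0.21. Runx3, a factor of T and NK cells, averaged 9.71 ± 1.36 FPKM in KO and 14.3 ± 1.08 FPKM in WT (limma adjusted p = 0.0442), and Cbfb, the shared partner of RUNX proteins, 70.8 ± 3.396 FPKM in KO and 89.8 ± 2.35 FPKM in WT (adjusted p = 0.0394). Runx1, named with its values in view, overlapped between groups (14.4 ± 4.99 FPKM in KO and 17.2 ± 3.64 FPKM in WT, adjusted p = 0.478), and Runx2 was not called either. Runx3 and Cbfb lost their call without any 1 library but KO replicate 3 (adjusted p 0.0732 to 0.170 for Runx3 and 0.0790 to 0.158 for Cbfb). Over the fits without 1 library, 1 to 2 relatives were called higher and 0 to 3 lower. Mef2a and Mef2d, relatives of Mef2c chosen after their values were seen, were below WT in each KO library without a call. Mef2a averaged 5.03 ± 1.41 FPKM in KO and 8.27 ± 1.38 FPKM in WT (adjusted p = 0.0737), and Mef2d 9.70 ± 0.994 FPKM in KO and 14.5 ± 2.67 FPKM in WT (adjusted p = 0.0650).

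**Figure D4:**
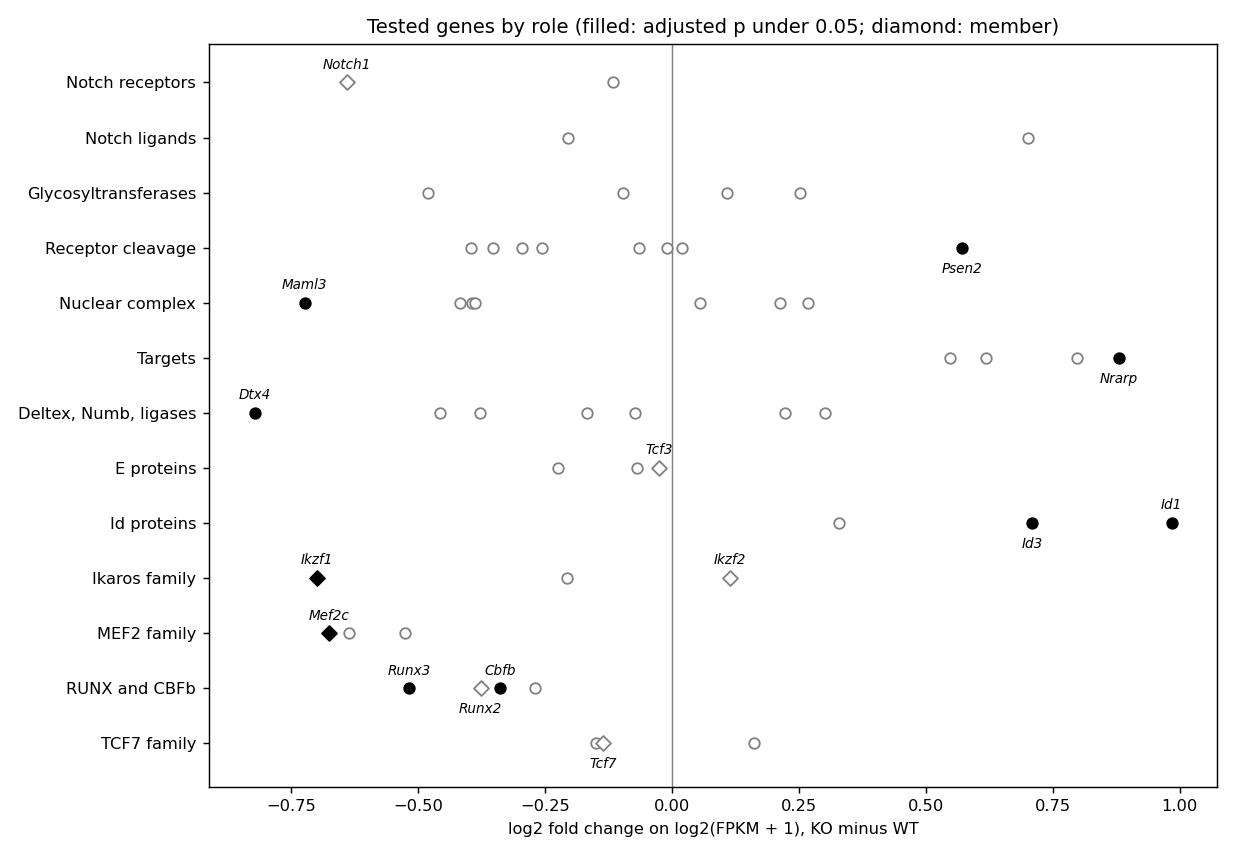
log2 fold change on log2(FPKM + 1), KO minus WT, of tested genes by role. Diamonds are members and circles other genes, filled where the adjusted p was under 0.05. Id1 (0.98) and Nrarp (0.88) lie far right, Dtx4 (-0.82), Maml3 (-0.72), Ikzf1 and Mef2c left, and Tcf3 near 0. The members Satb1, Bcl11a and Ebf1 are not drawn.

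Other transcription factors of lymphoid fate mostly did not pass, like most tested genes. Of 18 tested, limma called 1 higher and 0 lower (5.56 and 0%, against 5.48% higher and 5.43% lower of all tested genes). At an unadjusted p under 0.05, 2 were lower. Voom also called 0 lower, where it called 7.88% of all genes lower. The median log2 fold change was 0.040. Foxo1, which activates genes of early B cells, was at 9.46, 10.4 and 10.1 FPKM in KO, against 6.40, 4.79 and 6.78 FPKM in WT (0.66 ± 0.15 SE, adjusted p = 0.0261). Its groups did not overlap, but the call was lost without any 1 library but KO replicate 3 (adjusted p 0.0550 to 0.107). Among genes that act further down the lymphoid path, 6 of 15 tested fell and 1 rose (40.0 and 6.67%, against 5.43% lower and 5.48% higher of all tested genes), with a median of -0.32. Of those that fell, Rag2 and Ccr9, named with their values in view, passed the filter through their WT level alone, so the count is a description; at a mean of at least 5 FPKM it was 4. The 4 with the smallest p were Dntt, Flt3 and Lck, which fell, and Ltb, which rose, each called under all 15 alternatives. Without KO replicate 2, 2 rose.

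Some surface markers within the LSK gate moved beside these genes, and others did not. Of 8, 2 rose and 2 fell, against 5.48% higher and 5.43% lower of all tested genes. Those that rose were Slamf1, at 9.91 ± 2.20 FPKM in KO and 1.73 ± 0.708 FPKM in WT, and Procr, at 49.9 ± 9.58 FPKM in KO and 30.1 ± 3.14 FPKM in WT. Those that fell were Cd34, at 410.5 ± 47.1 FPKM in KO and 675 ± 16.1 FPKM in WT, and Flt3, which the previous list also holds, at 34.9 ± 3.45 FPKM in KO and 82.7 ± 9.76 FPKM in WT. Cd48, named with its values in view, overlapped between groups (180 ± 35.8 FPKM in KO and 173 ± 22.7 FPKM in WT, limma adjusted p = 0.878). Ly6a, Kit and Ptprc overlapped too. Slamf1 and Procr mark long-term stem cells, and Cd34 and Flt3 mark progenitors that have left that state. The 9 erythroid markers summed to 745 to 1401 FPKM in KO and 394 to 676 FPKM in WT, with 3 of 7 tested called higher (5.48% of all tested genes). The 10 neutrophil markers summed to 29.2 to 165 FPKM in KO and 118 to 243 FPKM in WT, with 0 of 8 tested called by limma (4 at an unadjusted p under 0.05, 3 by voom). The 10 macrophage and dendritic cell markers summed to 43.5 to 60.7 FPKM in KO and 53.5 to 67.8 FPKM in WT, with 1 of 5 tested called lower (5.43% of all tested genes). The part of these cells in the values of Satb1, Mef2c and Ikzf1 was not tested.

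Genes whose profile over the 6 libraries was most like that of a called member were sought among 7220 genes, by the mean absolute difference of log2(FPKM + 1) after subtraction of the WT mean. Nearest to Satb1 were Ncf1 (0.163), Cd52 (0.164) and Uhrf1 (0.178). Nearest to Mef2c were Sptbn1 (0.0538), Tob2 (0.0541) and Il17re (0.0562). Nearest to Ikzf1 were Rnf44 (0.0403), Il17re (0.0421) and Cnot3 (0.0440). Il17re, an interleukin 17 receptor family gene, stood near both Mef2c and Ikzf1, at 10.4 ± 0.927 FPKM in KO and 18.0 ± 0.764 FPKM in WT.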

How the data were processed

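The deposited table gives FPKM per gene symbol for each library, as scaled by the authors, with 0 columns outside the 6 samples. The submitters' processing notes name build mm10, DESeq2 1.18.1, HTSeq 0.6.1, TopHat2 2.1.1 and bcl2fastq 2.19.1.403, without roles; the sources used here give no annotation. Per the labels' protocols, SMART-Seq v4 cDNA went into Nextera XT libraries, which do not mark strand.

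KO was compared with WT in limma 3.58.1 (R 4.3.3; lmFit, eBayes with trend, two-sided) on log2(FPKM + 1), after removal of genes averaging under 1 FPKM. The fit was tested on simulated data. Tables and plots used Python 3.11.15, numpy 2.4.6, pandas 2.3.3 and matplotlib 3.10.9. Whole reads were recovered from FPKM steps: 50.5% of 19373 genes above 0 gave whole numbers at their GENCODE M21 exon length (relative tolerance 1e-06), 7 members among them. For nearly all others, Satb1, Mef2c and Ikzf2 among them, the smallest whole ratio between libraries was used, a lower bound. Gene positions are from GENCODE M21 (GRCm38, which mm10 is), promoters from RefSeq (GRCm38.p6).

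The members and lists were chosen with earlier results of these data known. Named genes are the members, up to 4 called genes per list by smallest p, and the 3 genes nearest to each called member (mean of at least 5 FPKM, no predicted models). Exceptions from the lists are marked, and the cell type markers named fall outside this rule. Nothing in the labels ties replicates to separate animals, so p-values reflect only differences among these libraries. The 15 alternatives changed the pseudocount, filter, scaling, weighting or set of libraries, added a replicate block, or used voom on recovered reads.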

Additional observations from a re-analysis of the deposited data

How the results depend on the processing

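The 3 members called lower stayed 3 under 13 of the 15 alternatives; they were 2 with KO replicate 2 as the single KO library and 4 with voom, and 0 were called higher under each. Over the whole table, 588 genes were called with no filter on low values, 805 with a replicate block and 514 without both KO libraries that lack Y-linked transcripts, against 1240; leaving out 1 library gave 370 to 1598. A fit with 1 KO library assumes that it varies like the WT libraries. Deviations of same-numbered KO and WT libraries from their group means correlated at -0.031, 0.045 and -0.12 for replicates 1 to 3. Not every library correlated best with its own number. These values show no pairing by number but cannot exclude it, since deviations within a group depend on each other. With the replicate block 3 members were called lower and 0 higher. Signs of small differences changed: without both KO libraries lacking Y-linked transcripts Tcf3 was 0.18, Ikzf2 -0.079 and the median of the other lymphoid factors -0.072, and with array weights Tcf3 was 0.041. Leaving out 1 library gave -0.13 to 0.11 for Tcf3, -0.35 to 0.28 for Tcf7 and -0.034 to 0.082 for that median. The causes were not tested. Of 120 list counts recomputed, 42 moved by over 1.5 times or went to or from 0, which for such small counts can be a single gene. Notch1, Tcf7 and Ebf1 rest on few reads, which limits their precision.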

Other observations

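Some list genes under the filter of 1 FPKM lay apart between groups, and were chosen after their values were seen. Zbtb16, which encodes the zinc finger factor PLZF, was at 1.14, 1.13 and 0.940 FPKM in KO, against 0.722, 0.602 and 0.314 FPKM in WT. Id4, another Id protein gene, was at 1.17, 1.66 and 0.666 FPKM in KO, against 0.386, 0.617 and 0.193 FPKM in WT. In both, all KO values were above all WT values, and neither was tested.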
